A study of Mus musculus with 14 samples.

Results

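Kcng1, Kcnmb3, Scn4b and Slc8a1 are 4 mouse genes for membrane proteins that pass or regulate potassium, sodium and calcium currents. They were selected on the normalized counts of the Kir2.1 experiment, for their fall there, among the 51211 gene symbols measured, so their levels in the Kir2.1 experiment are given as a description with no test, while the exposure experiment played no part in the choice. Whole olfactory epithelia were taken at P5 (postnatal day 5) in both experiments and profiled by RNA-seq as 14 libraries. The 3 Kir2.1 mice carried the OMP-IRES-tTA allele together with tetO-Kir2.1-IRES-tauLacZ, and the 3 control mice of that experiment were heterozygous for OMP-IRES-tTA alone, so both groups carried the driver. The tTA activator is made where Omp is expressed, in mature olfactory sensory neurons (OSNs). The paper states that the silencing also reaches vomeronasal neurons, and the cells that carried the transgene product were not measured here. The 4 PEA-exposed mice were wild type and were exposed to the odorant phenylethylamine (PEA) from P0 to P5, and their 4 control mice were wild type without the odor. All are labelled C57BL/6, whereas the methods of the study name CD-1 pups for the exposure. The Kir2.1 libraries also carry the treatment label Kir2.1-off, a term used in the study for animals fed doxycycline after weaning, but they were taken at P5 and had high Kcnj2.

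An OSN turns odorant binding into current through a cAMP-gated cation channel and a calcium-activated chloride channel in its cilia, and it fires action potentials through voltage-gated sodium and potassium channels. Calcium that enters during the response is removed by sodium-calcium exchangers and calcium pumps. Kir2.1, encoded by Kcnj2, is an inward rectifier potassium channel that holds the membrane near the potassium equilibrium potential and makes firing less likely. Kcng1 encodes Kv6.1, an electrically silent subunit that forms no channel alone and modifies Kv2 channels. Kcnmb3 encodes the beta-3 auxiliary subunit of the BK channel, which opens with both depolarization and calcium. Scn4b encodes the beta-4 auxiliary subunit of voltage-gated sodium channels, and Slc8a1 encodes the plasma membrane sodium-calcium exchanger NCX1.

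The 4 genes lie on 4 chromosomes in GRCm38 with the GENCODE vM21 annotation. Kcng1 (ENSMUSG00000074575) occupies chr2:168260117-168281736 on the minus strand, and Kcnmb3 (ENSMUSG00000091091) occupies chr3:32471588-32492231 on the minus strand. Scn4b (ENSMUSG00000046480) occupies chr9:45138395-45154152 on the plus strand, and Slc8a1 (ENSMUSG00000054640) occupies chr17:81373105-81738377 on the minus strand. Upstream sequence from RefSeq (GRCm38.p6) was matched for 3 of the 4 genes, Kcnmb3, Scn4b and Slc8a1. The 250 bases before the start of Slc8a1, at chr17:81738388-81738637 read on the minus strand, are shown because this was the sole window of the 3 that lay outside the annotated transcript. For Scn4b a 28-base stretch at chr9:45138544-45138571 on the plus strand is shown because it held the single match among the motifs searched, which is in capitals.

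Slc8a1: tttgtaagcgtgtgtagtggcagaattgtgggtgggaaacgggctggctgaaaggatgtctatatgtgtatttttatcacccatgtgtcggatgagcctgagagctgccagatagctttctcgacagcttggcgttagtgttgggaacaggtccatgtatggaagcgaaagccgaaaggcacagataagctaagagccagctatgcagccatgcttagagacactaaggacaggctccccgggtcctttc
Scn4b: aactcttctccTAATTGgcagctcggcg

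The motifs were searched on both strands of the 250-base windows, and the share of all 32851 RefSeq windows of that length holding each one is given. They were the cAMP response element TGACGTCA (1.55% of windows) and the TGACG contained in it (17.8%), the EBF motif CCCNNGGG (11.8%), the homeodomain motifs TAATTA (4.84%) and TAATTG (7.17%) and the E-box CACGTG (6.02%). The match to TAATTG in Scn4b began 69 bases before the RefSeq start, at position -69. It lies inside the gene as annotated by GENCODE, which starts at 45138395. Of the 250 bases of the window, 229 lay inside the GENCODE gene for Scn4b and 250 for Kcnmb3, so these 2 windows are largely annotated gene sequence. None of the motifs occurred in the windows of Kcnmb3 and Slc8a1. A match of this kind is a description of the letters and no evidence of binding.

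The labels were checked first. Kcnj2 measured 986 to 1274 normalized counts in the 3 controls and 17926 to 24193 in the 3 Kir2.1 mice, an 18.1-fold difference (log2 fold change 4.18 with SE 0.14, limma adjusted p = 0.000157). Adjusted p-values here and below were obtained by the Benjamini-Hochberg method over all genes tested, and a gene was called when its adjusted p was under 0.05. A normalized count is the estimated number of reads of a gene after scaling of the library, and fold changes are differences of mean log2(normalized count + 1), which understate the change of low genes. The normalized values summed to 33049111 to 34198478 per library in the Kir2.1 experiment and to 11476120 to 12467331 in the PEA experiment, and since these are totals after scaling, the read depth is unknown. Markers of mature OSNs, immature OSNs and sustentacular cells were detected in all 14 libraries. Vomeronasal receptor genes, which mark a neighboring organ, averaged 6.06 on the log2 scale in Kir2.1 control mouse 1 and 2.35 to 2.45 in the other 5 libraries of that experiment. In the PEA experiment the average ran from 1.38 to 5.77 and was over 5 in PEA control mouse 1 and PEA-exposed mouse 1. Xist, a transcript of female cells, was 3.84, 3.94, 13.8 and 14.6 on the log2 scale in PEA control mice 1 to 4. It was 14, 13.6, 3.19 and 13.9 in PEA-exposed mice 1 to 4, so the PEA groups were not balanced for it. In the Kir2.1 experiment it was low in mouse 3 of each group (2.01 in the control, 4.53 in Kir2.1). The main fits did not include it. The labels do not say that the libraries of a group come from separate litters, and the p-values measure the spread between these libraries.

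All 4 genes passed the filter of a mean normalized count of at least 10 in both experiments. In the Kir2.1 experiment each was lower in all 3 Kir2.1 mice than in any control mouse, with 31.0% to 49.7% of the control level remaining. Of all 19807 genes tested there, 9.04% were lower in Kir2.1 mice with no overlap between the groups, and because the genes were picked for this fall, their count is not read against that share.

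Kcng1, the silent Kv subunit, measured 1035, 1176 and 1111 normalized counts in controls 1 to 3, against 347, 363 and 320 in Kir2.1 mice 1 to 3. The highest Kir2.1 mouse was thus far below the lowest control mouse. The mean went from 1107 ± 70.8 to 343 ± 21.5 (SD, n = 3 each), with 31.0% of the control level remaining and a log2 difference of -1.69 (SE 0.10), which ranked Kcng1 139th from the most lowered of all genes tested.

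Kcnmb3, the BK beta-3 subunit, measured 932, 954 and 918 in controls 1 to 3, against 418, 333 and 382 in Kir2.1 mice 1 to 3. The control mice lay within a narrow band (coefficient of variation 1.97%), and the Kir2.1 mice were more spread (11.3%). The mean went from 935 ± 18.4 to 377 ± 42.7 (SD, n = 3 each), a log2 difference of -1.31 (SE 0.11).

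Scn4b, the sodium channel beta-4 subunit, measured 5643, 6582 and 5570 in controls 1 to 3, against 3174, 2891 and 2776 in Kir2.1 mice 1 to 3. Control mouse 2 stood above the other controls, and all Kir2.1 mice were below every control. The mean went from 5932 ± 565 to 2947 ± 205 (SD, n = 3 each), a log2 difference of -1.01 (SE 0.09).

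Slc8a1, the exchanger NCX1, measured 1802, 2054 and 1996 in controls 1 to 3, against 977, 954 and 954 in Kir2.1 mice 1 to 3. The Kir2.1 mice were nearly alike (coefficient of variation 1.39%), and control mouse 1 was the lowest of the controls. The mean went from 1951 ± 132 to 962 ± 13.4 (SD, n = 3 each), a log2 difference of -1.02 (SE 0.08).

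**Figure D1:**
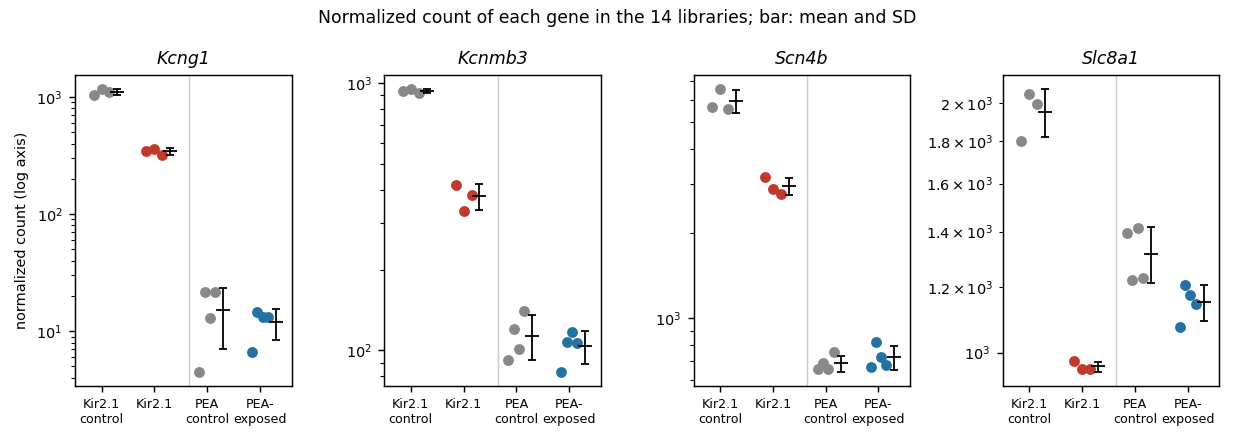
Normalized count (log axis) of Kcng1, Kcnmb3, Scn4b and Slc8a1 in each of the 14 libraries, with a bar for the mean and SD of each group (n = 3 in the Kir2.1 experiment and n = 4 in the PEA experiment). In every panel the 3 Kir2.1 libraries lie below the 3 control libraries, whereas the PEA groups overlap for every gene but Slc8a1; the 2 experiments were normalized separately.

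Kcng1 and Kcnmb3 retained 31.0% and 40.4% of the control level, while Scn4b and Slc8a1 retained 49.7% and 49.3%. With 1 library left out at a time, the log2 difference ran from -1.73 to -1.64 for Kcng1 and from -1.39 to -1.22 for Kcnmb3. It ran from -1.06 to -0.93 for Scn4b and from -1.07 to -0.98 for Slc8a1. These values chose the genes, and no order among the 4 was tested. Without control mouse 1, whose vomeronasal receptor genes were high, the differences were -1.73 for Kcng1, -1.31 for Kcnmb3, -1.04 for Scn4b and -1.07 for Slc8a1, each at least as far from 0 as with all 6 libraries.

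Levels between genes were compared per kilobase of merged exons. Scn4b stood at 1191 normalized counts per kilobase in control mice, above 91.7% of the 16549 protein-coding genes tested. Kcnmb3 followed at 545 (79.8%), then Kcng1 at 246 (60.5%) and Slc8a1 at 104 (39.5%), whose merged exons span 18807 bases over 6 transcripts. In Kir2.1 mice the same percentiles were 81.5, 57.3, 33.5 and 27.5, so that Kcng1 moved from above the median protein-coding gene to below it.

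The mature OSN genes listed had values below 0 in the same comparison. Omp, the olfactory marker protein gene whose locus drives the transgene, had a mean of 33338 in control mice and 22010 in Kir2.1 mice (log2 fold change -0.60 with SE 0.08, limma adjusted p = 0.0466), a call that was lost in 11 of 17 alternative fits (limma adjusted p from 0.0147 to 0.175). All 13 genes of the mature OSN list were below 0, with a median of -0.41. They ran from -0.66 for Umodl1 to -0.34 for Cnga2, the main subunit of the cAMP-gated channel. Before adjustment 13 of 13 were lower at p under 0.05, where 11.1% of all genes tested reached that value in either direction. For 12 of the 13 the groups did not overlap, against 9.04% of all genes tested. After adjustment Omp and Umodl1 passed the threshold. Of all genes tested 0.353% passed it (70 genes), 0.278% as lower (55 genes) and 0.0757% as higher (15 genes). The median gene stood at 0.01, and 48.8% of genes were below 0. In bulk tissue, fewer mature OSNs and less RNA per OSN cannot be told apart.

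Each of the 4 genes was therefore also set against Omp within each library. The log2 ratio to Omp was lower in Kir2.1 mice by -1.09 for Kcng1, by -0.71 for Kcnmb3, by -0.41 for Scn4b and by -0.42 for Slc8a1. The groups did not overlap for any of them. For Scn4b the gap was narrow, with -2.70 in control mouse 3 and -2.73 in Kir2.1 mouse 1. Of the 19806 genes tested other than Omp, 0.505% were lower without overlap on this scale. This share includes the 4 genes and is given as background only, because the same contrast chose the genes. Against the mean of the 13 mature OSN genes the differences were -1.23 for Kcng1, -0.86 for Kcnmb3, -0.55 for Scn4b and -0.56 for Slc8a1. Both scales subtract 1 common amount from every gene, so the order of the 4 genes is that of the unscaled values.

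**Figure D2:**
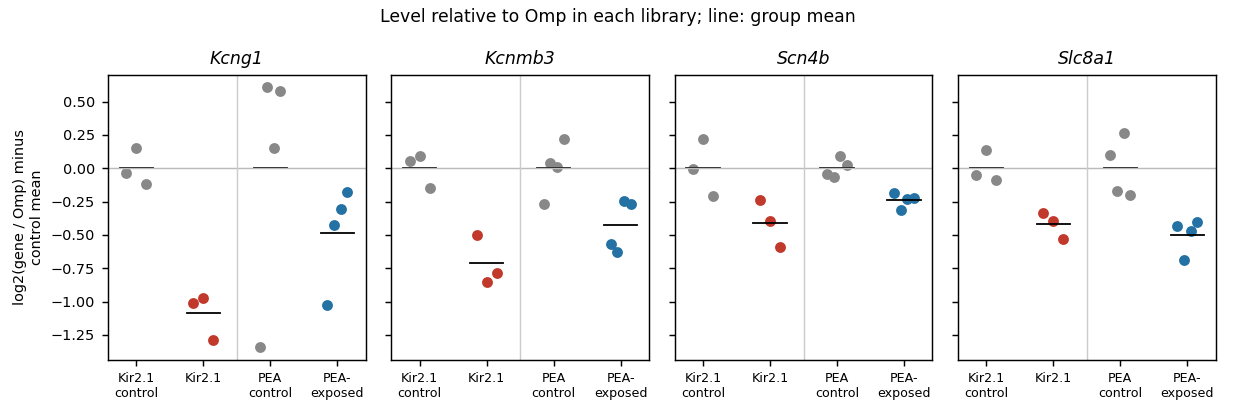
Log2 ratio of each gene to Omp in each library, minus the control mean of its experiment, with a line at the mean of each group (n = 3 per Kir2.1 group, n = 4 per PEA group). The Kir2.1 libraries lie below their controls in all 4 panels, by a narrow gap for Scn4b (mean differences -1.09, -0.71, -0.41 and -0.42). In the PEA experiment the mean differences were -0.49, -0.43, -0.24 and -0.50. On this scale 15.5% of all genes tested other than Omp were lower without overlap, Scn4b and Slc8a1 among them.

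The other marker lists held 0 called genes by limma in this experiment. The vomeronasal list had a median log2 fold change of -1.18, with 92 of 96 tested genes below 0 and 5 lower at p under 0.05 before adjustment. Its summed level was 1731 to 12314 in the controls, with the highest receptor average in control mouse 1, and 1667 to 1740 in Kir2.1 mice. The list held 574 genes, and the filter used the mean over all libraries, so genes high in control mouse 1 alone could pass it. Such genes stand below 0 by that filter, so the median and count of this list are a description only. The immature OSN list had a median log2 fold change of -0.04 with 0 of 7 genes called by limma, and 0 of the 7 had an unadjusted p under 0.05. The sustentacular list had a median of -0.09 with 0 of 6 called and 0 of 6 at an unadjusted p under 0.05. The erythroid list had a median of 0.88, with its 5 genes summing to 11005 to 19897 in the controls against 20242 to 33607 in Kir2.1 mice, 0 called by limma and 5 of 5 higher at an unadjusted p under 0.05. The medians of the remaining lists were -0.08 for globose basal and precursor cells, 0.33 for horizontal basal cells, 0.13 for microvillar cells, 0.19 for respiratory ciliated cells, 0.24 for ensheathing glia and 0.26 for immune cells, and before adjustment 1 gene in each of the last 3 was higher at p under 0.05. The 8 genes listed for striated muscle, a tissue that also expresses Slc8a1 and Scn4b, had summed levels of 233 to 278 in the controls and 230 to 295 in the Kir2.1 mice, and 4 of them had means under 10. The part of these cells in the levels of the 4 genes was not tested.

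The partners and relatives of the 4 genes were examined with lists of 43 further genes, of which 33 passed the filter in the Kir2.1 experiment. Of these, 23 were below 0, 1 was called lower and 0 were called higher, with a median of -0.19. Before adjustment 11 of the 33 were lower and 1 was higher at p under 0.05, where 11.1% of all genes tested reached that value in either direction. The lists were chosen with earlier results of these data known. Of the 13 mature OSN genes, 13 were lower at that value, so the share over all genes is background only.

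Among Kv2 channels and silent Kv subunits, 7 genes other than Kcng1 were tested and 0 were called by limma, with 2 lower at an unadjusted p under 0.05. Kcns3, a silent subunit, went from 354 to 248 (log2 fold change -0.50 with SE 0.15, limma adjusted p = 0.285). Kcng2, the relative closest in name to Kcng1, was low in both groups at 16.2 and 20.3, and the median of the 7 genes was -0.27.

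The BK channel list held 6 tested genes other than Kcnmb3, with 0 called by limma, 0 at an unadjusted p under 0.05 and a median of -0.10. Kcnma1, which forms the BK pore, had means of 2289 ± 133 and 2049 ± 126 (SD, n = 3 each; log2 fold change -0.16 with SE 0.08, limma adjusted p = 0.536), and the groups overlapped. The other beta subunits stood at -0.33 (Kcnmb2, SE 0.20), -0.19 (Kcnmb4, SE 0.11) and 0.08 (Kcnmb1, SE 0.48), and none of these passed the test.

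Among sodium channel subunits, 9 genes other than Scn4b were tested, 7 were below 0 and 0 were called by limma, while before adjustment 5 were lower and 1 was higher at p under 0.05. Scn3b, a beta subunit, was nearest to the threshold, with 3838 ± 221 in control mice and 2848 ± 60.7 in Kir2.1 mice (SD, n = 3 each; log2 fold change -0.43 with SE 0.07, limma adjusted p = 0.072). Scn9a, the pore-forming subunit Nav1.7, went from 7400 to 5993 (log2 fold change -0.30 with SE 0.08, limma adjusted p = 0.222). The median of the list was -0.30.

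The list of exchangers and calcium pumps held 11 tested genes other than Slc8a1, with 8 below 0 and a median of -0.29. Slc24a2, a potassium-dependent sodium-calcium exchanger, was the sole gene called in the 4 lists, with 3759 ± 158 in control mice and 2163 ± 63.5 in Kir2.1 mice (SD, n = 3 each; log2 fold change -0.80 with SE 0.07, limma adjusted p = 0.00704). The call was lost without the mean-variance trend (adjusted p = 0.0636) and with the replicate number as a block (adjusted p = 0.0747), the ends of the 17 alternatives being 0.00515 and 0.0747. Slc24a4, the exchanger known to end the odor response in OSN cilia, stood at 1473 and 1292 (log2 fold change -0.19 with SE 0.08, limma adjusted p = 0.436). The closest relatives of NCX1 were low and above 0, at 0.28 (SE 0.16, adjusted p = 0.595) for Slc8a2 and 0.44 (SE 0.37, adjusted p = 0.749) for Slc8a3.

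**Figure D3:**
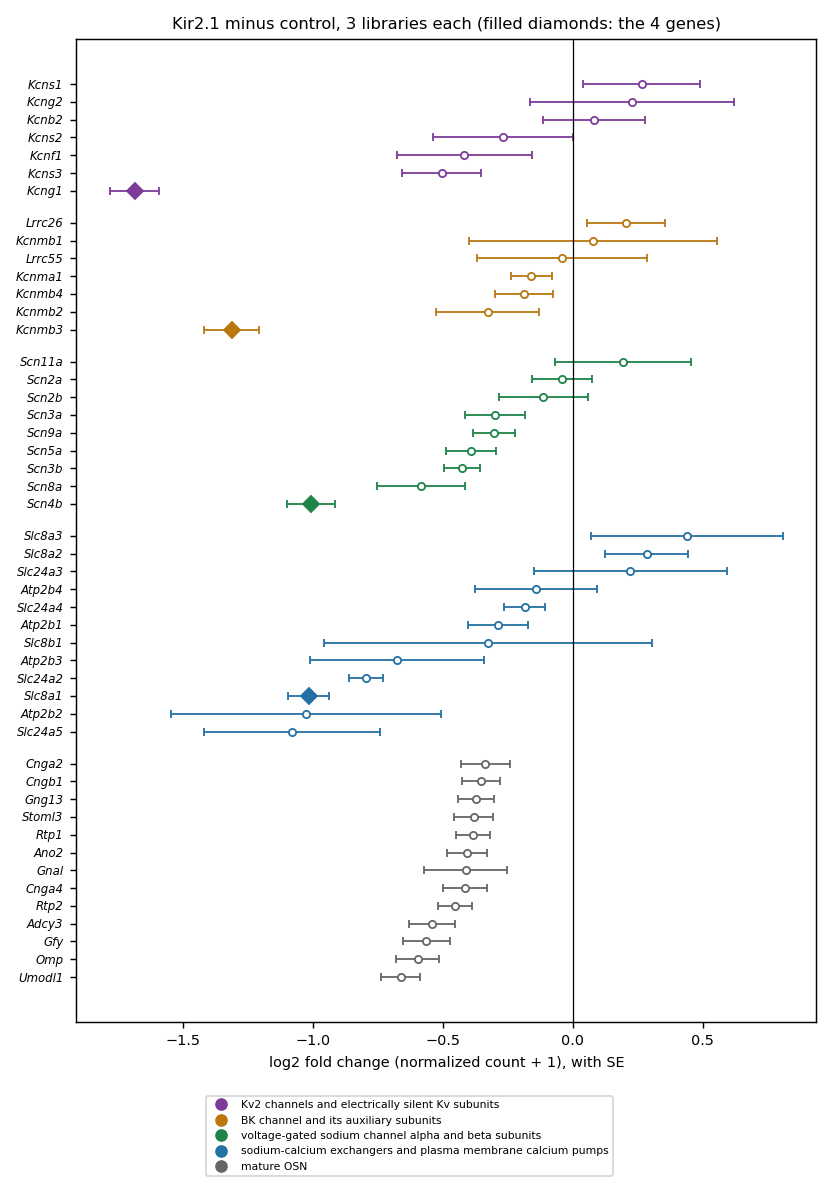
Log2 fold change (normalized count + 1) between Kir2.1 and control mice, with SE (3 libraries per group), for the 4 genes (filled diamonds), other tested genes of their 4 lists and the 13 mature OSN genes. Kcng1, Kcnmb3 and Scn4b lie to the left of every other plotted gene of their list, Slc8a1 (-1.02) lies beside Slc24a5 (-1.08) and Atp2b2 (-1.03), which have wide errors, and the mature OSN genes fall between -0.66 and -0.34.

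The position of a gene beside its annotated neighbors was examined for each of the 4. No annotated gene overlapped Kcng1, Kcnmb3 or Scn4b. Pik3ca, 3102 bases from Kcnmb3, had means of 2416 and 2365 (log2 fold change -0.03, SE 0.07), and Zfp639 on the other side stood at -0.05 (SE 0.08). Scn2b, another sodium channel beta subunit gene 8325 bases from Scn4b, had means of 128 and 117 (log2 fold change -0.11 with SE 0.17, limma adjusted p = 0.877). On the other side Tmprss4, 18574 bases away, had means of 1133 and 933 with no overlap between the groups (log2 fold change -0.28 with SE 0.09, limma adjusted p = 0.325). Of the nearest protein-coding genes of Kcng1, Mocs3 stood at 0.03 (SE 0.09) and Nfatc2, a calcineurin-dependent transcription factor 194674 bases away, at 611 and 393 (log2 fold change -0.66 with SE 0.17, limma adjusted p = 0.211), with no overlap between the groups. Slc8a1 was overlapped by Gm11096, which was listed at 0 in all 14 libraries, and by an antisense transcript that was not analysed here. Its nearest protein-coding genes on either side were Thumpd2 at 0.04 (SE 0.16) and Pkdcc at 0.35 (SE 0.16, limma adjusted p = 0.476), both with overlapping groups.

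The genes whose centered log2 values over the 6 libraries of the Kir2.1 experiment were most like each of the 4 genes were found by the root mean square difference, over all genes tested. These likenesses follow the same contrast that chose the genes and carry no test. S100a5, a calcium-binding protein gene of OSNs, was the nearest to Kcng1 at 0.07, with means of 6750 in control mice and 2013 in Kir2.1 mice (log2 fold change -1.75). Scn4b and Slc8a1 were near each other, at 0.08, which made Slc8a1 the nearest gene to Scn4b and Scn4b the second nearest to Slc8a1 after Epha5 at 0.07. Epha5, an Eph receptor gene, had means of 1092 and 547. Kcnmb3 had no gene as near, with Gm3896 at 0.17, Gm2237 at 0.17 and Nrn1l at 0.18, and Slc8a1 ranked 4 among its nearest genes.

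The PEA experiment asked whether exposure to 1 odorant during the early postnatal period changed gene expression, and here the 4 genes could be tested. None of them passed the threshold. Of the 17322 genes tested, 0.179% did (31 genes), 0.144% as higher (25 genes) and 0.0346% as lower (6 genes).

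Kcng1 measured 4.53, 21.5, 13.0 and 21.8 in PEA control mice 1 to 4 and 6.65, 14.6, 13.1 and 13.3 in PEA-exposed mice 1 to 4. The groups overlapped fully, and the lowest library of each group was number 1. The means were 15.2 ± 8.21 and 11.9 ± 3.58 (SD, n = 4 each; log2 fold change -0.18, SE 0.49, 95% interval -1.28 to 0.92, adjusted p = 0.898 by limma, exact two-sided permutation p = 0.657). The interval was wide at these low counts, and the value turned positive when PEA control mouse 2, PEA control mouse 4 or PEA-exposed mouse 1 was left out (0.05, 0.05 and 0.06).

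Kcnmb3 measured 91.8, 121, 101 and 141 in PEA control mice 1 to 4 and 83.3, 107, 117 and 107 in PEA-exposed mice 1 to 4. As for Kcng1, number 1 was the lowest library in both groups, and these were the libraries with the highest vomeronasal receptor averages (5.77 and 5.33). PEA control mouse 2 had the next highest average (4.68) and was not low, at 21.5 for Kcng1 and 121 for Kcnmb3. The log2 fold change was -0.12 (SE 0.18, 95% interval -0.52 to 0.27, adjusted p = 0.787 by limma, exact two-sided permutation p = 0.514, n = 4 each). With the vomeronasal average as a covariate it was -0.29 for Kcnmb3 and -0.62 for Kcng1, and neither passed the threshold (adjusted p = 0.523 and 0.603 by limma).

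Scn4b measured 658, 687, 654 and 752 in PEA control mice 1 to 4 and 667, 819, 726 and 676 in PEA-exposed mice 1 to 4. The groups overlapped, with the highest library among the exposed mice. The log2 fold change was 0.07 (SE 0.10, 95% interval -0.16 to 0.29, adjusted p = 0.796 by limma, exact two-sided permutation p = 0.514, n = 4 each).

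Slc8a1 measured 1394, 1223, 1414 and 1229 in PEA control mice 1 to 4 and 1074, 1206, 1175 and 1143 in PEA-exposed mice 1 to 4. All 4 exposed mice were below all 4 controls, by a gap of 0.02 on the log2 scale between the nearest libraries, and 3.86% of all genes tested were lower without overlap. The means were 1315 ± 103 and 1149 ± 56.2, with 87.4% of the control level remaining (SD, n = 4 each; log2 fold change -0.19, SE 0.09, 95% interval -0.40 to 0.01). The exact two-sided permutation p was 0.0286, the smallest that 4 against 4 can give, and it is 1 of 4 such tests, while limma over all genes gave p = 0.0622 (adjusted p = 0.358). The difference in Slc8a1 did not pass the threshold in any of 19 alternatives.

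**Figure D4:**
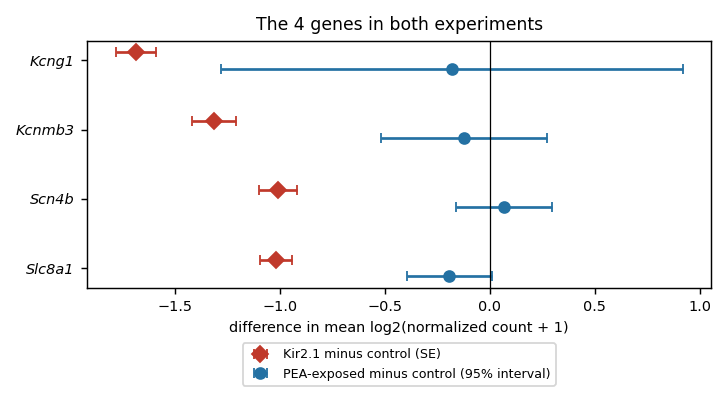
Difference in mean log2(normalized count + 1) of the 4 genes in Kir2.1 mice minus control mice (diamonds with SE, n = 3 each) and in PEA-exposed minus control mice (circles with 95% interval, n = 4 each). The Kir2.1 values run from -1.69 to -1.01, and the PEA intervals of all 4 genes include 0, from the narrow one of Slc8a1 (-0.40 to 0.01) to the wide one of Kcng1 (-1.28 to 0.92).

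For the 4 genes the difference between the Kir2.1 and PEA experiments was not tested, since the Kir2.1 values chose the genes and the libraries were made by different methods. Omp was higher in all PEA-exposed mice than in any PEA control mouse (means 8460 and 6817, log2 fold change 0.31 with SE 0.11, limma adjusted p = 0.252). Relative to Omp the 4 genes stood at -0.49 (Kcng1), -0.43 (Kcnmb3), -0.24 (Scn4b) and -0.50 (Slc8a1), with no overlap between the groups for Scn4b and Slc8a1. On this scale 15.5% of the 17321 genes tested other than Omp were lower without overlap. Scn4b itself overlapped between the groups (0.07) before it was divided by Omp. Relative to the mean of the 13 mature OSN genes, whose median log2 fold change was -0.05, they stood at -0.16, -0.11, 0.09 and -0.18 in the same order.

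Of the 43 related genes, 28 were tested in the PEA experiment and 0 were called by limma, with a median of -0.06. Before adjustment 3 of them were lower and 1 was higher at p under 0.05, a value that 15% of all genes tested reached in either direction. Kcnma1, the BK pore, had means of 1628 ± 188 and 1314 ± 135 (SD, n = 4 each; log2 fold change -0.31 with SE 0.11, limma adjusted p = 0.256), and its groups did not overlap. Slc8a3 (NCX3), another sodium-calcium exchanger, had means of 74.1 and 42.9 (n = 4 each; log2 fold change -0.80 with SE 0.25, limma adjusted p = 0.200), also without overlap. Slc24a2, which was called in the Kir2.1 experiment, stood at -0.15 (SE 0.13, adjusted p = 0.643) with overlapping groups, and the difference between its 2 contrasts was not tested.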

How the data were processed

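RNA-seq of 14 olfactory epithelia (P5) was used. The authors estimated transcript counts with Salmon and scaled gene sums with DESeq2 (versions 1.3.0 and 1.30.0 in the submitters' processing notes). What was deposited is a normalized signal for each gene, from poly-A selected unstranded libraries (Kir2.1) and rRNA-depleted stranded libraries (PEA). The methods give 1 Salmon strand setting for all samples, and its effect on the unstranded libraries cannot be checked. Whole reads were not recovered (at most 42.0% of low values were whole multiples of 1 step, tolerance 0.02 steps), so count tests were not run and depth is unknown.

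The experiments were normalized separately and tested separately. Genes with a mean of at least 10 were tested with limma 3.58.1 (R 4.3.3; trend, Benjamini-Hochberg, threshold 0.05) on log2(value + 1), and single genes with exact permutation tests (scipy 1.17.1). The scripts were tested on simulated data. Named genes were the 4 genes, genes of the channel and marker lists, Kcnj2, Omp, annotated neighbors and the 3 genes of most similar profile per gene and experiment. Genes and lists were chosen with earlier results of these data known. In GENCODE vM21, 95.9% of the symbols were found. Some listed genes enter the counts but are not reported here by name or plotted. Whether replicate numbers pair the samples is unknown, and the main fits treated the libraries as unpaired. Alternatives were pseudocounts of 0.5 and 5, filters of none and of a mean of at least 50, no trend, median centring, quantile normalization, a replicate block, a vomeronasal receptor covariate, a threshold of 0.10, each library left out and, chosen after seeing the data, an Xist covariate.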

Additional observations from a re-analysis of the deposited data

Results flagged for a closer look

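Among 32 genes (the 4 genes and related channel genes), the 64 groups of 4 PEA libraries were screened for a library standing apart (gap over range above Dixon's 95% critical value), and 4 groups held one, where chance gives about 1 in 20. None of the 4 was a group of Kcng1, Kcnmb3, Scn4b or Slc8a1. Atp2b4, a calcium pump gene, was low in PEA-exposed mouse 4 at 355 normalized counts, with 464 to 472 in the other exposed mice. Scn8a, the sodium channel Nav1.6, was high in PEA-exposed mouse 1 at 286, with 161 to 177 in the others. Kcns1, a silent potassium channel subunit, was at 13.8 in PEA-exposed mouse 1 and 13.0 to 13.1 in the others, a narrow range. Slc8b1, the mitochondrial sodium-calcium exchanger, was high in PEA control mouse 2 at 65.6, with 25.6 to 30.3 in the others.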

How the results depend on the processing

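The Kir2.1 differences of the 4 genes moved by less than the spread between libraries in 17 of 17 alternatives. The other filters, the fit without the trend, the replicate block and the threshold of 0.10 cannot move a difference of means. The same values chose the genes, so their stability is given as a description only. None of the 4 genes passed the threshold in the PEA experiment in any alternative. The number of genes called in the Kir2.1 experiment (70) was 20 without the trend, 22 with the vomeronasal covariate (18 shared with the 70), 44 with the Xist covariate (chosen after seeing the data; 41 shared), 171 at a threshold of 0.10 and 23 to 44 with 1 library left out. The related channel genes called there (1, Slc24a2) became 0 without the trend and 2 (with Scn3b) at a threshold of 0.10. In the PEA experiment the count (31) was 52 with no filter, 20 with the vomeronasal covariate, 128 at a threshold of 0.10 and 19 to 43 with 1 library left out. Kcng1 in the PEA experiment ranged from -0.63 to 0.06 with 1 library left out, was 0.0451 without PEA control 2, 0.0508 without PEA control 4 and 0.0554 without PEA-exposed 1, and had no value at a mean of at least 50. The causes were not tested.

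Same-numbered libraries deviated from their group means with correlations of -0.06, -0.01 and 0.16 in the Kir2.1 experiment and 0.14, -0.02, -0.05 and 0.10 in the PEA experiment. These correlations were not tested and cannot exclude pairing by litter or batch. The methods name littermates as the Kir2.1 controls, and whether equal numbers mark pairs is unknown. With the replicate block 9 genes were called in the Kir2.1 experiment (8 shared with the 70), 0 of the related channel genes, and 23 genes in the PEA experiment. PEA control 4 carries the number 5 in its title.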

Other observations

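The Kir2.1 control level divided by the PEA control level was 72.8 for Kcng1, against 2.99 for the median protein-coding gene. The ratio of Kcng1 was above 99.8% of the 15136 protein-coding genes tested in both experiments. The ratios were 8.63 for Scn4b (86.1%), 8.23 for Kcnmb3 (85.1%) and 1.48 for Slc8a1 (18.2%). Per kilobase of merged exons Kcng1 stood above 60.5% of protein-coding genes in Kir2.1 control mice and above 2.99% in PEA control mice. These ratios set tables side by side that were normalized separately and came from libraries of different selection, strandedness and, by the methods, mouse strain, and these cannot be told apart.

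The genes most like each of the 4 genes were others in the PEA experiment. Over its 8 libraries the nearest genes were Bicra for Kcng1 (root mean square difference 0.27), Prickle2 for Kcnmb3 (0.09), Endod1 for Scn4b (0.04) and Pik3c3 for Slc8a1 (0.03). Scn4b, second nearest to Slc8a1 in the Kir2.1 experiment, was the 3498th nearest in the PEA experiment.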
